A study of Mus musculus with 16 samples.

Results

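The immediate early genes examined here were Fos, Fosb, Jun, Junb, Atf3, Egr1, Nr4a1, Ier2, Ier3 and Zfp36, chosen by symbol as classical members of the first transcriptional response to a stimulus and followed across muscles of WT and UBR4 mKO mice aged 6 or 24 months. All 10 were found among the 47643 genes of the expression table, and all 10 were among the 10628 genes with a mean of at least 1 TPM that were tested. Immediate early genes are transcribed within minutes of a signal such as a growth factor, a contraction, a calcium rise or tissue handling, by transcription factors that are already present in the resting cell, and most of their mRNAs are short-lived. In skeletal muscle they are known to be induced by exercise and by injury. Because the response is fast and transient, both the group means and the spread between individual muscles are given for each gene.

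RNA was sequenced from tibialis anterior muscles, on the front of the lower leg, of male mice, with 4 muscles in each of 4 groups. The study's methods name C57BL6/J for its electroporated mice and no strain for the knockout line. All mice were homozygous for floxed Ubr4 alleles (UBR4 fl/fl), and per the study's methods all received tamoxifen. The UBR4 mKO mice also carried ACTA1-Cre, whose promoter is active in skeletal myofibers, so that other cells of the muscle kept Ubr4, and the mice referred to as WT lacked Cre. UBR4 is a large ubiquitin ligase, and the study asked how its loss in myofibers affects muscle at a young and an old age. Values are TPM (the share of all transcripts that a gene takes, scaled for transcript length and summing to 1000000 in each sample).

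Ubr4, the targeted gene, was lower in every UBR4 mKO muscle than in any age-matched WT muscle, at 4.91 to 6.54 against 9.09 to 15.7 TPM at 6 months and at 4.28 to 14.6 against 17.0 to 21.1 TPM at 24 months. Mitochondrially encoded transcripts took 52.6 to 59.7% of the TPM in the 6-month-old WT muscles and 46.1 to 51.7% in the other 12. The median gene was 0.33 higher on the log2 scale in 6-month-old UBR4 mKO than in WT muscles, and 0.26 higher in 24-month-old than in 6-month-old WT muscles. When the values were rescaled without mitochondrial genes these shifts were 0.09 and 0.08. Of the genes called at 6 months, 4645 had higher and 122 lower levels after loss of UBR4, against 704 and 1082 when samples were scaled to the median gene, and with age in WT 2555 were higher and 114 lower, against 468 and 567. The 8 myofiber markers summed to 72451 to 98264 TPM, against 8.16 to 12.7 TPM for the 4 satellite cell markers, 20.5 to 375 TPM for 9 leukocyte markers and 578 to 2069 TPM for 5 erythroid markers. In whole muscle, fewer cells of a type and less RNA per cell cannot be told apart.

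In GENCODE vM21 on GRCm38, Fos lies on chromosome 12 from 85473890 to 85477273 on the plus strand and Fosb on chromosome 7 from 19302696 to 19310051 on the minus strand. Jun lies on chromosome 4 from 95049034 to 95052222 and Junb on chromosome 8 from 84974484 to 84978718, both on the minus strand and each with a single exon in its longest coding transcript. Atf3 spans chromosome 1 from 191170296 to 191218039 on the minus strand, Egr1 chromosome 18 from 34859823 to 34864984 on the plus strand, and Nr4a1 chromosome 15 from 101254269 to 101274795 on the plus strand. Ier2 lies on chromosome 8 from 84661331 to 84662852 on the minus strand, Ier3 on chromosome 17 from 35821684 to 35822923 on the plus strand, and Zfp36 on chromosome 7 from 28376784 to 28380253 on the minus strand. Annotated genes on the opposite strand overlap Jun (Junos), Junb (Prdx2, over 351 bases), Atf3 (Gm24748) and Zfp36 (Gm44710). The sources do not state whether strand was used in counting, so reads in those stretches cannot be assigned with certainty.

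On the TPM scale, which allows levels to be compared between genes, Nr4a1 was the most abundant member, with a mean of 136 TPM over the 16 muscles. It was followed by Jun at 41.8, Fos at 29.7, Junb at 21.7 and Egr1 at 14.8 TPM. Zfp36, Ier3, Ier2 and Atf3 lay close together at 11.5, 10.3, 9.66 and 9.62 TPM, and Fosb was the least abundant at 4.41 TPM. The group with the highest mean was WT at 24 months for 8 of the 10 genes and UBR4 mKO at 24 months for Jun and Ier2. When the 4 groups of each gene were put in order of their means, 29 of the 30 neighbouring groups overlapped. The exception was Ier2, for which 24-month-old WT muscles lay above 6-month-old UBR4 mKO muscles.

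Fos and Fosb encode leucine zipper proteins that form the AP-1 transcription factor together with a Jun protein. Fos was at 45.7, 39.1, 12.7 and 11.5 TPM in the 6-month-old WT muscles and at 20.2, 27.3, 22.0 and 18.6 TPM in the 6-month-old UBR4 mKO muscles. At 24 months it was at 26.2, 56.6, 25.6 and 37.2 TPM in WT and at 8.39, 58.2, 9.28 and 56.3 TPM in UBR4 mKO muscles. In both the 6-month-old WT and the 24-month-old UBR4 mKO group the muscles fell into a high and a low pair, and the highest muscle exceeded the lowest 3.99-fold and 6.94-fold. The group means of Fos, 27.3 ± 17.7, 22.0 ± 3.78, 36.4 ± 14.5 and 33.0 ± 28.0 TPM (SD, n = 4, in the same order), differed by less than these ranges. Fosb was at 4.27, 5.18, 3.97 and 2.14 TPM in 6-month-old WT, at 2.68, 3.86, 8.08 and 3.36 TPM in 6-month-old UBR4 mKO, and at 6.15, 8.78, 5.64 and 5.16 TPM in 24-month-old WT muscles. In 24-month-old UBR4 mKO muscles it was at 0.993, 7.02, 0.667 and 2.69 TPM. Of those 4 muscles, 3 were below every 24-month-old WT muscle and replicate 2 was within the WT range.

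Jun and Junb encode the Jun partners of AP-1, of which c-Jun is the stronger transactivator. Jun was at 41.4, 46.8, 26.8 and 24.0 TPM in 6-month-old WT and at 37.2, 36.0, 34.0 and 35.7 TPM in 6-month-old UBR4 mKO muscles. At 24 months it was at 42.9, 54.3, 37.0 and 55.3 TPM in WT and at 39.6, 58.0, 36.3 and 63.9 TPM in UBR4 mKO muscles. Jun had the narrowest group of all members on the TPM scale, the 6-month-old UBR4 mKO muscles, with a coefficient of variation of 3.68%. Junb was at 17.7, 15.3, 11.9 and 8.68 TPM in 6-month-old WT and at 19.0, 25.2, 15.6 and 19.4 TPM in 6-month-old UBR4 mKO muscles. At 24 months Junb was at 29.5, 30.9, 24.4 and 29.5 TPM in WT, all above the 6-month-old WT muscles, and at 10.03, 35.1, 15.6 and 39.8 TPM in UBR4 mKO muscles. The 24-month-old UBR4 mKO muscles lay on both sides of the 24-month-old WT muscles, with replicates 2 and 4 above them and replicates 1 and 3 below.

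Atf3 encodes a stress-induced leucine zipper factor of the ATF/CREB family that can also pair with Jun proteins. It was at 10.5, 6.60, 3.96 and 3.55 TPM in 6-month-old WT and at 9.98, 9.08, 10.6 and 8.45 TPM in 6-month-old UBR4 mKO muscles. At 24 months it was at 10.9, 39.7, 9.25 and 8.10 TPM in WT and at 3.08, 9.69, 4.56 and 5.95 TPM in UBR4 mKO muscles. The WT mean at 24 months, 17.0 ± 15.2 TPM (SD, n = 4), was raised by replicate 2. The other 3 muscles of that group lay above 6-month-old WT replicates 2, 3 and 4 and overlapped the 6-month-old UBR4 mKO muscles.

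Egr1 encodes a zinc finger transcription factor, and Nr4a1 an orphan nuclear receptor (Nur77) that is induced by contraction and contributes to metabolic gene expression in muscle. Egr1 was at 14.7, 12.8, 7.07 and 5.17 TPM in 6-month-old WT and at 9.09, 11.2, 13.1 and 10.2 TPM in 6-month-old UBR4 mKO muscles. At 24 months it was at 17.4, 22.2, 17.1 and 20.2 TPM in WT and at 5.83, 25.8, 5.92 and 38.5 TPM in UBR4 mKO muscles. The means of the old groups, 19.2 ± 2.40 and 19.0 ± 16.03 TPM (SD, n = 4), were thus nearly equal, while no old UBR4 mKO muscle lay within the range of the old WT muscles. Nr4a1 was at 94.1 to 163 TPM in 6-month-old WT, 107 to 159 TPM in 6-month-old UBR4 mKO, 118 to 195 TPM in 24-month-old WT and 77.2 to 158 TPM in 24-month-old UBR4 mKO muscles. Its 4 group means lay between 129 and 143 TPM, and all groups overlapped.

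Ier2 encodes a small nuclear protein, Ier3 a regulator of cell survival, and Zfp36 tristetraprolin, which binds AU-rich elements of mRNAs and promotes their decay, including those of other immediate early genes. Ier2 was at 8.39, 8.24, 6.31 and 5.76 TPM in 6-month-old WT and at 7.34, 9.28, 9.43 and 8.62 TPM in 6-month-old UBR4 mKO muscles. At 24 months Ier2 was at 10.05, 9.99, 9.65 and 10.9 TPM in WT and at 6.05, 15.0, 6.32 and 23.3 TPM in UBR4 mKO muscles. The old WT muscles were the tightest group of Ier2, with a coefficient of variation of 5.24% against 64.8% in the old UBR4 mKO muscles. Zfp36 was at 12.6, 10.7, 7.77 and 5.87 TPM in 6-month-old WT and at 11.5, 11.5, 8.02 and 7.21 TPM in 6-month-old UBR4 mKO muscles. At 24 months Zfp36 was at 13.1, 15.4, 12.2 and 14.2 TPM in WT and at 6.13, 19.0, 7.78 and 21.5 TPM in UBR4 mKO muscles, so that the old UBR4 mKO muscles again lay above and below all old WT muscles. Ier3 had group means between 9.76 and 10.6 TPM, and its 24-month-old UBR4 mKO muscles, at 10.97, 10.7, 6.08 and 13.9 TPM, did not fall into the same pairs.

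**Figure D1:**
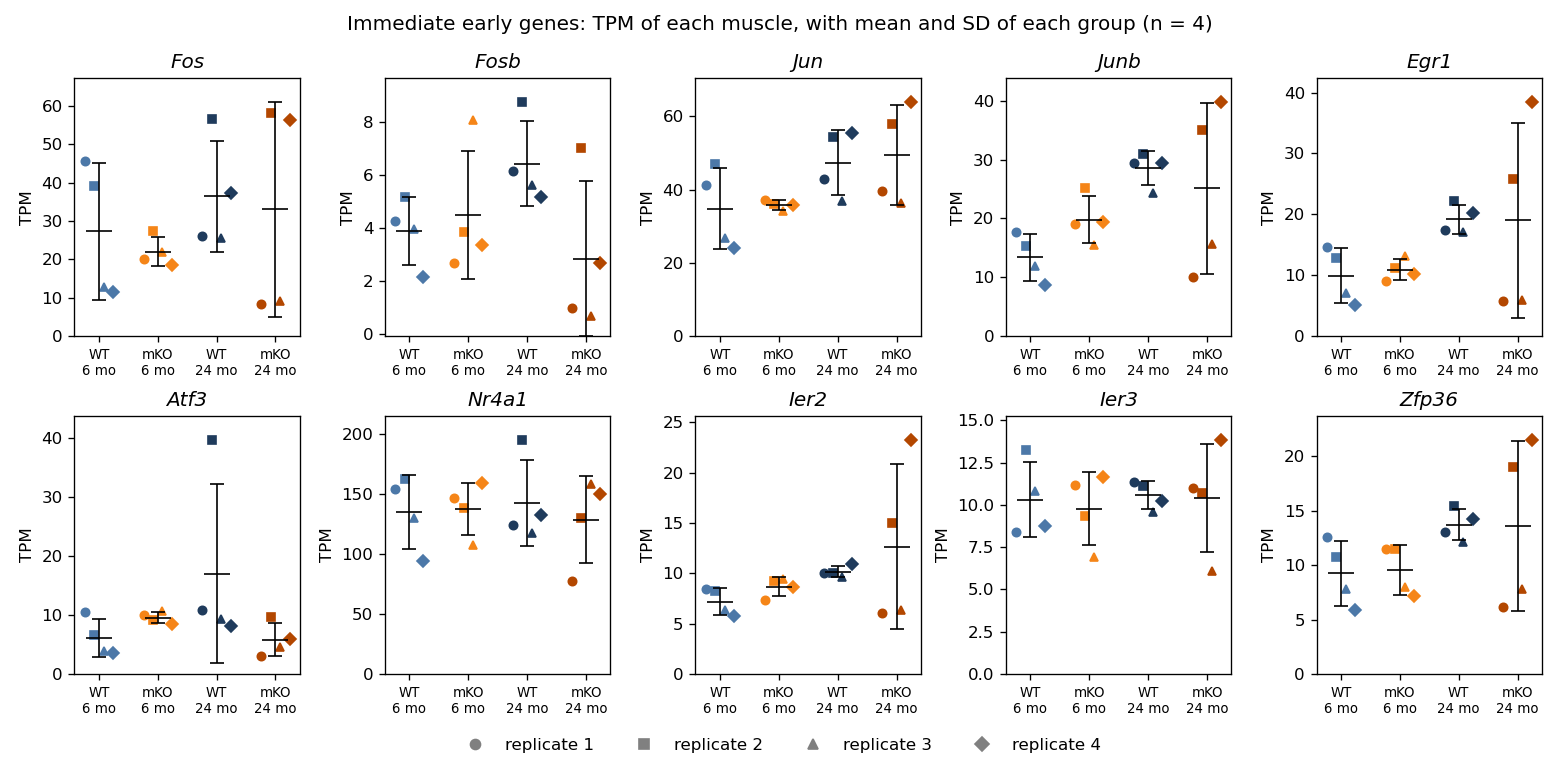
Each panel plots the TPM of 1 gene on a linear axis for the 16 muscles, with a marker shape for each replicate number and a bar for the mean and SD of each group (n = 4). In the 24-month-old UBR4 mKO group of Fos, Junb, Egr1, Ier2 and Zfp36, replicates 2 and 4 sit high and replicates 1 and 3 low, whereas the 24-month-old WT muscles sit between them for Junb, Egr1, Ier2 and Zfp36.

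The motifs known to drive immediate early genes are the CArG box of serum response factor, the CRE of CREB, the AP-1 site and the EGR site. They were searched on both strands in RefSeq sequences (GRCm38.p6) of 250 bases before to 50 bases after each start. These matched 8 of the 10 genes. Egr1 and Ier2 had no sequence there and were not searched. Of the 8 genes searched, Zfp36 was the 1 with a CArG box in this window, 58 to 49 bases before the start, and 1.63% of all 32851 promoters held one. It is shown here because it is the one CArG box or CRE among these windows, with the 30 bases around it (chr7:28379267-28379296, minus strand) and the box in capitals.
Zfp36: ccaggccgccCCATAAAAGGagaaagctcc
This stretch lies in the 5′ UTR of 1 longer GENCODE transcript of Zfp36. The EGR site (GCGNGGGCG) was found in Fosb, Nr4a1 and Zfp36, against 5.55% of all promoters. The CRE (TGACGTCA) and the AP-1 site (TGANTCA) were found in 0 of the 8 genes, against 1.79% and 7.81% of all promoters, which says only that these letters are not in these windows.

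At 6 months, the loss of UBR4 in myofibers was not accompanied by a change in any immediate early gene that passed the test. None of the 10 was called by limma at an adjusted p under 0.05, 0 had an unadjusted p under 0.05 (55.5% of all genes), and the Dunn test also called 0. Of all tested genes 44.9% were called in this comparison, mostly as higher in UBR4 mKO muscles. The SE of the members ran from 0.21 for Jun to 0.58 for Fos, so a shift of 0.33, that of the median gene, could hardly be called for them. The members' median log2 fold change was 0.12, against 0.33 for all genes, with a range from -0.08 for Ier3 to 0.75 for Atf3. The largest values, 0.75 ± 0.43 (SE) for Atf3 (limma adjusted p = 0.152) and 0.59 ± 0.33 for Junb (limma adjusted p = 0.142), were below the threshold. The groups overlapped for all 10 genes, whereas they did not overlap for 39.9% of all genes. Scaled to the median gene, 8 of the 10 values were below 0 and the members' median was -0.23. Again 0 were called, against 1786 of 10598 genes on that scale.

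At 24 months, the mean log2 levels of most members were lower in UBR4 mKO than in WT muscles, and none of the differences passed the test. Of the 10 genes, 8 had a log2 fold change below 0, with a median of -0.30 over the 10 against 0.01 for all genes. In mean TPM these 8 differed less: the ratio was 0.88 to 0.99 for Junb, Nr4a1, Fos, Ier3, Egr1 and Zfp36. It was 0.44 for Fosb and 0.34 for Atf3. limma called 0 of 10 (0.630% of all genes were called), and 2 had an unadjusted p under 0.05, against 10.1% of all genes. Those 2 were Fosb, with a log2 fold change of -1.66 ± 0.51 (SE; limma adjusted p = 0.201), and Atf3, with -1.31 ± 0.43 (limma adjusted p = 0.231), which was -0.80 without replicate 2 of the 24-month-old WT muscles (limma adjusted p = 0.476). Fosb was called when UBR4 mKO replicate 2 was left out (log2 fold change -2.27, limma adjusted p = 0.0290). The other 8 genes lay between -0.61 for Fos and 0.09 for Ier2, and the value of Fos lay between -1.07 and -0.14 without UBR4 mKO replicates 2 and 1, respectively. No member had groups without overlap, against 5.80% of all genes. The summed leukocyte markers did not overlap, at 36.6 to 81.1 TPM in WT and 94.2 to 375 TPM in UBR4 mKO muscles.

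With age, all 10 immediate early genes had a higher mean log2 level in 24-month-old than in 6-month-old WT muscles, and Junb and Atf3 passed the test. Junb rose 2.13-fold in mean TPM, with a log2 fold change of 1.13 ± 0.33 (SE; limma adjusted p = 0.0229). Atf3 had a log2 fold change of 1.25 ± 0.43 (limma adjusted p = 0.0442), which was 0.73 and not called without replicate 2 of the 24-month-old WT muscles (limma adjusted p = 0.118). The share called, 2 of 10, was near the 25.1% of all genes called in this comparison, and the members' median of 0.61 was above the 0.26 of all genes. Scaled to the median gene, 8 of the 10 values stayed above 0 with a median of 0.34, but neither gene was called, against 1035 of 10598 genes. The log2 fold change was then 0.86 for Junb (limma adjusted p = 0.106) and 0.98 for Atf3 (limma adjusted p = 0.180). Junb, Egr1 and Ier2 had groups that did not overlap, 3 of 10 genes against 25.9% of all genes, each at the smallest p that 4 against 4 muscles allow (exact permutation test, two-sided, p = 0.0286). Egr1 had a log2 fold change of 1.06 ± 0.48 (limma adjusted p = 0.0978) and Ier2 of 0.51 ± 0.30 (limma adjusted p = 0.191). Single muscles decided both calls: Junb was not called without 6-month-old WT replicate 3 or 4 (limma adjusted p = 0.0579 and 0.0956) or 24-month-old WT replicate 1 or 4 (0.0547 and 0.0610). Atf3 was also not called without 6-month-old WT replicate 3 or 4 (0.115 and 0.161), 24-month-old WT replicate 1 (0.0679) or any of the 6-month-old UBR4 mKO muscles (0.0511 to 0.0550), and Jun was called without 6-month-old WT replicate 2 (log2 fold change 0.64, limma adjusted p = 0.0224). Nr4a1 and Ier3 were at 0.08 and 0.05, and both were below 0 when scaled to the median gene. Summed leukocyte markers (9 of 10 in the table, none at 0 in every muscle) were also higher in the old WT muscles without overlap, at 36.6 to 81.1 against 20.5 to 31.1 TPM, and so were the 8 myofiber markers, at 88952 to 97798 against 72451 to 82026 TPM. Their part in the members' values was not tested.

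In UBR4 mKO muscles no immediate early gene passed the test for age. Here age cannot be told apart from the longer time since the loss of UBR4. The values ranged from -1.06 ± 0.51 (SE) for Fosb to 0.43 ± 0.21 for Jun, with a median of 0.10 against -0.04 for all genes, and 7 of 10 were above 0. limma called 0 of 10, against 6.29% of all genes, and 0 had an unadjusted p under 0.05, against 19.7%. The groups overlapped for every member, against 12.9% of all genes without overlap. Fosb was called without UBR4 mKO replicate 2 of the 24-month-old group (log2 fold change -1.66, limma adjusted p = 0.0285), and its value was -0.59 without replicate 3 of that group. The 6 endothelial markers summed to 70.1 to 106 TPM in the 24-month-old and 131 to 140.2 TPM in the 6-month-old UBR4 mKO muscles, without overlap.

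The interaction asks whether the age change differed between the genotypes, where age in UBR4 mKO muscles includes a longer time without UBR4. For it limma called 0 of 10 members against 4.70% of all genes. At an unadjusted p under 0.05 there were 3 of 10 members, near the 31.0% of all genes, and all 3 had a lower log2 fold change with age in UBR4 mKO than in WT muscles, the direction of the median gene. For Atf3 and Fosb the change was above 0 in WT and below 0 in UBR4 mKO muscles, and for Junb it was above 0 in both. Atf3 had the largest difference, -2.07 ± 0.61 on the log2 scale (SE; limma adjusted p = 0.0592), followed by Fosb at -1.81 ± 0.73 (limma adjusted p = 0.119) and Junb at -0.98 ± 0.47 (limma adjusted p = 0.161), which was -0.62 without 24-month-old UBR4 mKO replicate 1. Atf3 was called without 6-month-old WT replicate 2 (limma adjusted p = 0.0349) and with the replicate number fitted as a block (0.0475). Fosb was called without 24-month-old UBR4 mKO replicate 2 (0.0360). The members' median was -0.42, against -0.31 for all genes, and -0.09 when scaled to the median gene. These 5 comparisons share their groups of muscles and are not independent of each other.

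**Figure D2:**
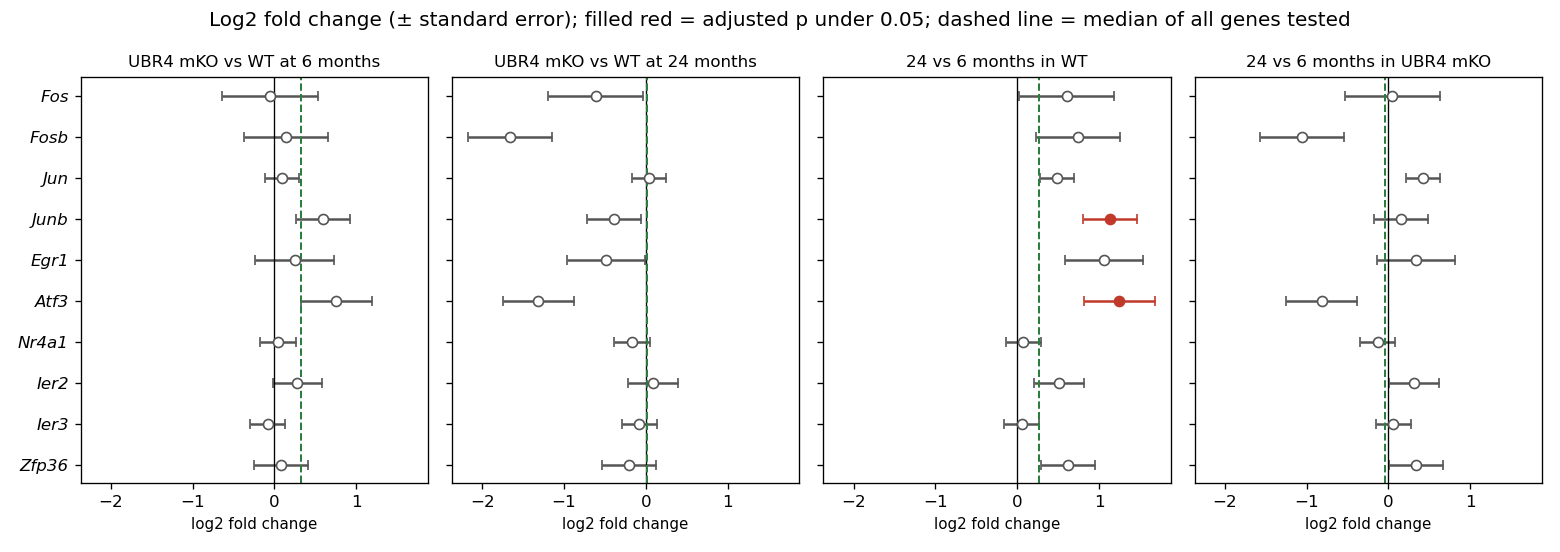
Each panel plots the log2 fold change of the 10 genes with its standard error for 1 comparison, on the log2(TPM + 0.1) scale, and a dashed line marks the median of all tested genes. Junb and Atf3 in 24 against 6 months in WT are the filled red points (limma adjusted p under 0.05), and all other points are open.

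The immediate early genes varied more between replicate muscles than most genes of the table. The SD of log2(TPM + 0.1) within groups, pooled over the 4 groups, was 0.98 for Fos, 0.86 for Fosb, 0.80 for Egr1 and 0.72 for Atf3, against a median of 0.20 over all tested genes. Among all tested genes these values lay at percentiles 99.4, 99.2, 99.1 and 98.6. Junb, Zfp36 and Ier2 were between 0.50 and 0.55, at percentiles 96.2 to 96.9, and Nr4a1, Ier3 and Jun between 0.34 and 0.36, at percentiles 87.4 to 89.7. By group, the members' median SD was 0.48 in 6-month-old WT, 0.24 in 6-month-old UBR4 mKO, 0.23 in 24-month-old WT and 0.92 in 24-month-old UBR4 mKO muscles. Over all genes the medians were 0.22, 0.14, 0.13 and 0.22 in the same order, higher in the same 2 groups as for the members. In the 24-month-old UBR4 mKO group 7 of 10 members exceeded the 90th percentile of all genes, as did 7 in the 6-month-old WT group and 4 in each of the others. Between the 24-month-old groups Ier2 differed most, at percentile 17.2 in WT and 98.6 in UBR4 mKO muscles. Over the 4 groups Jun had the widest range, from percentile 5.75 in 6-month-old UBR4 mKO to 96.4 in 6-month-old WT muscles.

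**Figure D3:**
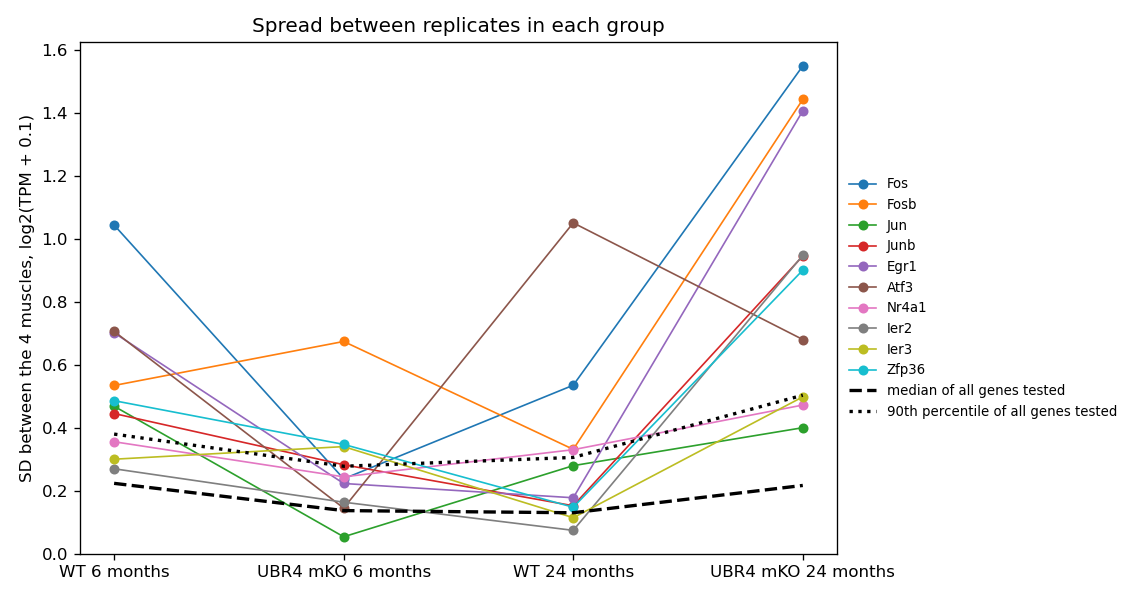
The SD of log2(TPM + 0.1) between the 4 muscles of each group is plotted for each gene, with a dashed line for the median and a dotted line for the 90th percentile of all tested genes. Fos, Fosb and Egr1 reach 1.41 to 1.55 in 24-month-old UBR4 mKO muscles, and Atf3 peaks at 1.05 in 24-month-old WT muscles. Lines join the groups for legibility and stand for no time course.

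When the spreads themselves were compared, Egr1, Ier2, Junb and Zfp36 were wider in 24-month-old UBR4 mKO than in WT muscles. limma on the absolute deviations from the group means called 4 of 10 members in this comparison, against 6.34% of all genes, with adjusted p = 0.00313 for Ier2, 0.0230 for Junb, 0.0337 for Egr1 and 0.0491 for Zfp36. It called 1 of 10, Ier2 (adjusted p = 0.00727), for 24 against 6 months in UBR4 mKO muscles, against 2.77% of all genes. It called 0 of 10 for UBR4 mKO against WT at 6 months (0.0188% of all genes, 1 member at an unadjusted p under 0.05, against 11.5% of all genes) and 0 of 10 for age in WT muscles (0.0941%, 0 members against 14.3%). Leaving out 24-month-old WT replicate 1, 2 or 4 left 1 of the 4 calls at 24 months (Ier2), and leaving out WT replicate 3 or UBR4 mKO replicate 3 left 2 (Ier2 and Junb). The call of Ier2 with age was lost without 6-month-old UBR4 mKO replicate 2 or 3. This test is liberal with 4 muscles a group: on simulated data for UBR4 mKO against WT at 24 months, 21.6% of its calls were genes whose spread had not been changed. With deviations from the group median, a stricter form added after seeing the data, 0 of 10 members were called in any comparison, and Ier2, Junb, Egr1, Zfp36 and Fosb kept an unadjusted p under 0.05 at 24 months, against 7.73% of all genes. This form recovered 2.5% of the simulated 4-fold changes in SD, against 45.5% for the first, so that 0 calls says little about the members.

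The same muscles were high or low for most of the genes at once. In the 24-month-old UBR4 mKO group, replicates 2 and 4 were above the group mean for 10 of 10 members, by 0.72 and 0.74 on average on the log2 scale, and replicates 1 and 3 were below it for 9 of 10, with averages of -0.80 and -0.67. The exceptions were Ier3 in replicate 1 and Nr4a1 in replicate 3. In 6-month-old WT muscles the mean deviations were 0.42, 0.39, -0.23 and -0.58, and in 24-month-old WT muscles replicate 2 stood out at 0.40. The 6-month-old UBR4 mKO muscles were the most even, with mean deviations from -0.06 to 0.10.

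Beside the 24-month-old UBR4 mKO values, in order of replicate, stand summed leukocyte markers of 143, 375, 94.2 and 103 TPM (9 of 10 markers in the table), erythroid markers of 868, 2069, 1417 and 753 TPM, Ubr4 itself at 10.1, 14.6, 4.28 and 7.63 TPM, and mitochondrial shares of 49.4, 49.8, 46.3 and 49.1%. Replicate 2 was highest in both marker lists, but replicate 4, which was as high in the immediate early genes, was not. In the 6-month-old WT group the mitochondrial share was 55.6, 52.6, 57.3 and 59.7% in order of replicate, lower in the muscles with higher members. The part of these values in the spread was not tested.

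**Figure D4:**
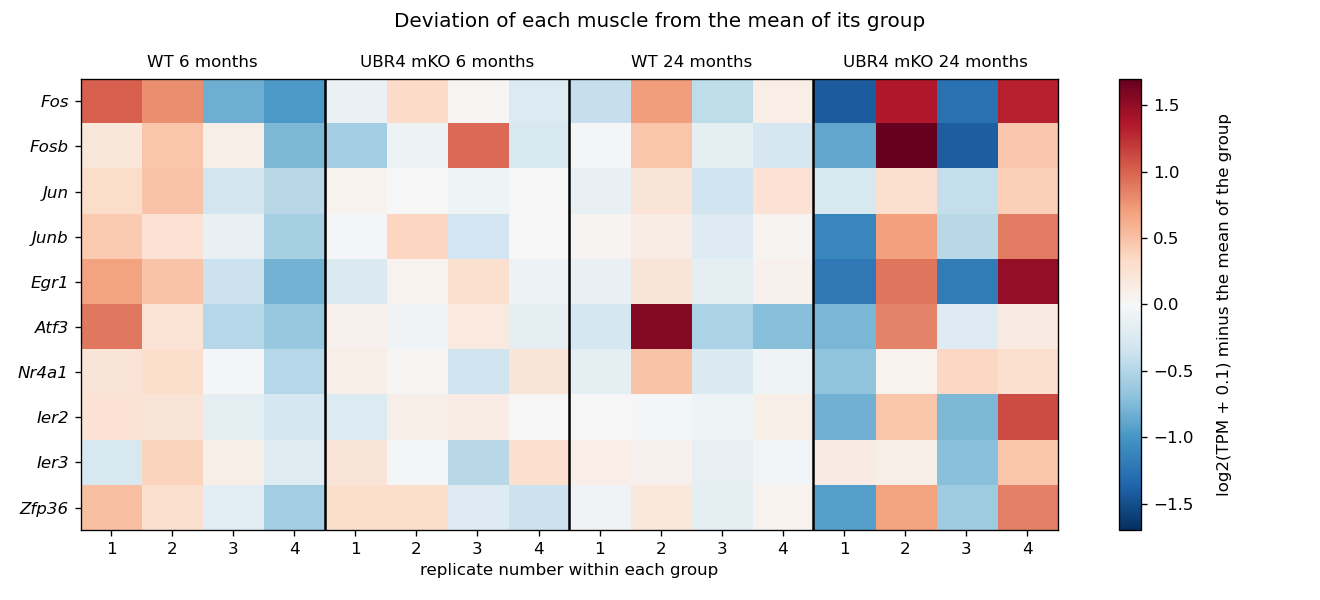
The color of each cell is the log2(TPM + 0.1) of 1 gene in 1 muscle minus the mean of its group, from blue (below) to red (above), with the 4 groups side by side. Columns 2 and 4 of the 24-month-old UBR4 mKO group are red and columns 1 and 3 mostly blue, with Fos at 1.37 and 1.32 against -1.41 and -1.27.

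Correlations of these deviations between genes were computed for all 45 pairs over the 16 muscles (two-sided permutation test within groups, 100000 permutations, adjusted over the 45 pairs). All 45 were positive, with a median Pearson r of 0.65, and 24 passed an adjusted p under 0.05. With Spearman's rho 23 passed. No matching count over pairs of other genes is given, so these counts cannot be read as particular to the members. The median tested gene had an r of 0.26 with the average deviation of the members. The closest pair was Egr1 and Ier2 (r = 0.97, permutation p = 0.00013, adjusted p = 0.00420; rho = 0.96, permutation p = 0.00079, adjusted p = 0.0109), with r = 0.96 without the 2 muscles farthest from the median of Egr1. Junb and Zfp36 followed (r = 0.95, permutation p = 0.00028, adjusted p = 0.00420; rho = 0.92, permutation p = 0.00121, adjusted p = 0.0109), with r = 0.92 without the 2 farthest muscles. Fos and Egr1 had an r of 0.95 (permutation p = 0.00098, adjusted p = 0.00882; rho = 0.96, permutation p = 0.00225, adjusted p = 0.0145) and 0.93 without the 2 farthest muscles. Ier3 stood apart from the others, with r between 0.08 and 0.52 and no pair called.

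The number of called pairs depended on the muscles included. It was 15, 14 and 13 without replicate 1, 2 or 4 of the 6-month-old WT muscles and 15 without replicate 2 of the 24-month-old WT muscles. Without the 24-month-old UBR4 mKO group, 4 of the 45 pairs passed over the remaining 12 muscles and 0 passed by Spearman's rho, with a median r of 0.64 and 42 of 45 positive. Egr1 and Ier2 remained the closest pair (r = 0.92, permutation p = 0.00236, adjusted p = 0.0423; rho = 0.92, permutation p = 0.00722, adjusted p = 0.0740). All genes of a muscle share its library and its scaling, and with the median gene as the scale 20 pairs passed.

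**Figure D5:**
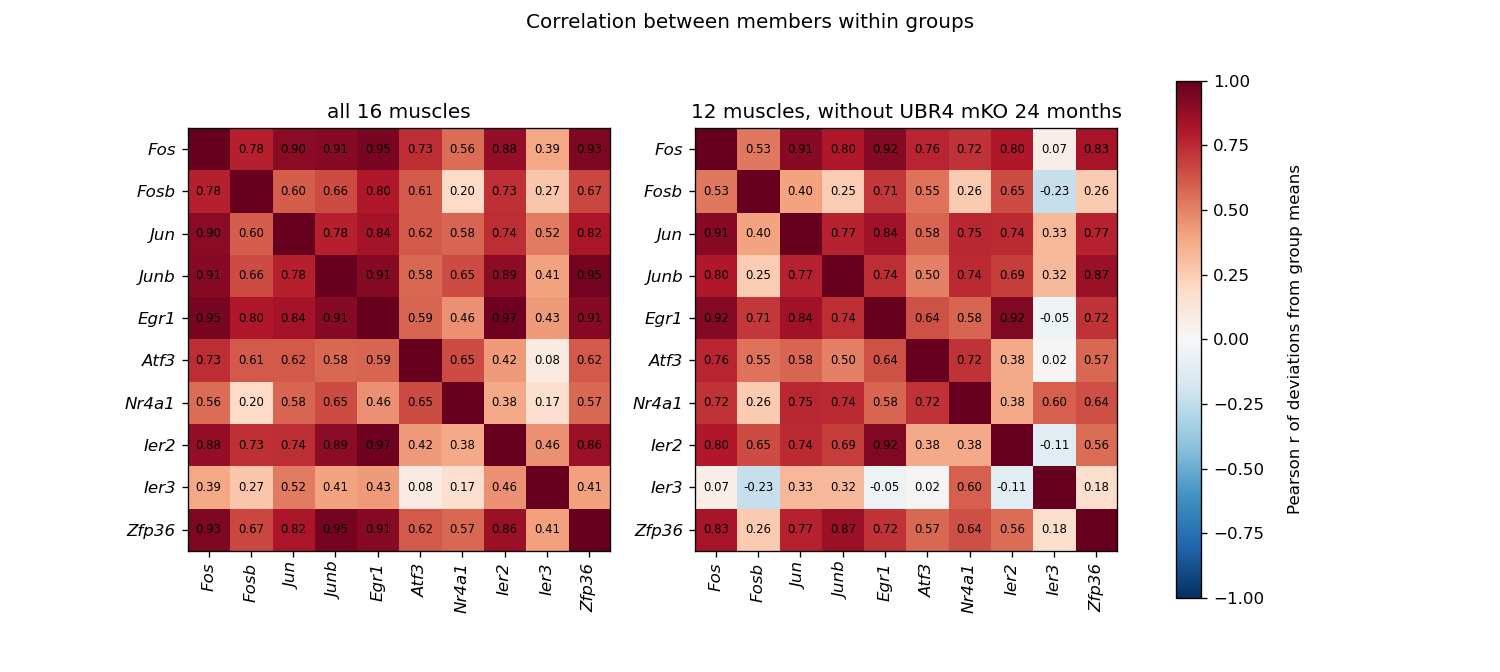
The 2 panels show Pearson's r between the within-group deviations of each pair of genes, for all 16 muscles and for the 12 muscles without the 24-month-old UBR4 mKO group, in colors from -1 (blue) to 1 (red). In the 16-muscle panel Fos, Jun, Junb, Egr1, Ier2 and Zfp36 form a block of high values (0.74 to 0.97). In the 12-muscle panel the same pairs run from 0.56 to 0.92, and pairs outside the block, such as Fos and Atf3 at 0.76, lie within that range. The row of Ier3 is the palest.

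The genes outside the list whose within-group deviations were most like the average of the members over the 16 muscles were Btg2 (r = 0.95), an antiproliferative immediate early gene, Errfi1 (r = 0.94), a feedback inhibitor of the EGF receptor, Csrnp1 (r = 0.91), Cxcl1 (r = 0.87), a neutrophil chemokine, Otud1 (r = 0.86), a deubiquitinase, Thbs1 (r = 0.86), thrombospondin 1, Apold1 (r = 0.85) and Klf4 (r = 0.83), a Krüppel-like factor. Btg2 was at 13.95, 34.0, 15.0 and 57.7 TPM in the 24-month-old UBR4 mKO muscles, with the same muscles high as for Fos and Egr1. Cxcl1 was at 1.49, 6.94, 1.88 and 8.97 TPM there, and its r fell to 0.52 over the 12 muscles without that group, while Btg2 and Errfi1 kept 0.94. Of the 35 other immediate early and feedback genes tested, 10 were among the 50 genes most alike, and their median r was 0.65 against 0.26 over all genes.

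Those other immediate early and feedback genes, 47 in the table and 35 above the expression minimum, include further transcription factors, growth arrest genes, phosphatases and signalling inhibitors. At 6 months 13 of the 35 were called, against 44.9% of all genes, all higher in UBR4 mKO muscles, with a median of 0.38 against 0.33 over all genes. Dusp6, a phosphatase that inactivates ERK, was at 10.3 ± 1.56 against 4.05 ± 0.408 TPM (SD, n = 4; log2 fold change 1.33, limma adjusted p = 0.000301). Gadd45a, a growth arrest gene known to rise in denervated and atrophying muscle, was at 36.9 ± 3.87 against 14.8 ± 2.35 TPM (log2 fold change 1.32, limma adjusted p = 0.00124). Socs3, an inhibitor of cytokine signalling, had a log2 fold change of 1.42 (limma adjusted p = 0.0161) and Myc, a growth-promoting transcription factor, of 1.01 (limma adjusted p = 0.000260). Scaled to the median gene, 3 of the 13 were still called, Dusp6, Gadd45a and Myc, and no other of the 35, against 1786 of 10598 genes. In the same muscles 3 of the 7 marker lists were higher in UBR4 mKO than in WT without overlap. Summed leukocyte markers were at 65.2 to 243 against 20.5 to 31.1 TPM, endothelial markers (6 of 6 in the table) at 131 to 140.2 against 83.4 to 114 TPM, and myofiber markers at 90430 to 97394 against 72451 to 82026 TPM. Their part in the values of these genes, and of the upstream and heat shock genes that follow, was not tested.

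At 24 months limma called 0 of the 35 between genotypes, against 0.630% of all genes, and 10 had an unadjusted p under 0.05, against 10.1%. The median was -0.11, against 0.01 over all genes. When scaled to the median gene 0 were called, against 97 of 10598 genes. With age in WT muscles, where leukocyte and myofiber markers were also higher, 13 of the 35 were called, against 25.1% of all genes, all higher, with a median of 0.53 against 0.26 over all genes, among them Gadd45a (log2 fold change 1.63, limma adjusted p = 0.000468), Myc (1.56, limma adjusted p = 1.06e-05), Sik1 (1.17, limma adjusted p = 0.00604), a CREB-induced kinase, and Pim1 (1.11, limma adjusted p = 0.00580), a survival kinase. Scaled to the median gene 5 were called, 4 higher and 1 lower, against 1035 of 10598 genes. In UBR4 mKO muscles, where endothelial markers were also lower with age (their part was not tested), 1 gene of the 35 was called, against 6.29% of all genes. It was Ctgf, a matrix-associated growth factor gene, at 7.43 ± 2.03 against 18.2 ± 3.94 TPM (SD, n = 4; log2 fold change -1.29, limma adjusted p = 0.00573). With values scaled to the median gene 2 were called, Ctgf and Mcl1, both lower, against 1197 of 10598 genes. The interaction called 5 of the 35, against 4.70% of all genes, namely Myc, Gadd45a, Socs3, Klf10 and Sik1, all with a lower log2 fold change with age in UBR4 mKO than in WT muscles. Myc had the smallest adjusted p of these, with a difference of -1.61 (limma adjusted p = 0.000789). The call of Myc held when scaled to the median gene, where 208 of 10598 genes were called, and those of the other 4 were lost. It was at 2.43 ± 0.353 TPM in 24-month-old UBR4 mKO against 3.72 ± 0.439 TPM in 24-month-old WT muscles (SD, n = 4).

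The factors and kinases that act upstream of immediate early genes, among them serum response factor, its Elk and Mkl cofactors, CREB with its Crtc coactivators and the MAP kinases, were 21 genes, all tested. At 6 months 12 of the 21 were called, against 44.9% of all genes, all higher in UBR4 mKO muscles, with a median of 0.36 against 0.33 over all genes. The examples were Mapk3, which encodes ERK1, at 17.5 against 13.4 TPM (limma adjusted p = 0.0118) and Map2k1, its activating kinase, at 36.6 against 26.3 TPM (limma adjusted p = 0.00175). Scaled to the median gene 3 were called, all lower, namely Map2k2, Mapk9 and Mapkapk2, against 1786 of 10598 genes. With age in WT muscles 6 of the 21 were called, against 25.1% of all genes, all higher. When scaled to the median gene 1 was called, lower, against 1035 of 10598 genes. For genotype at 24 months, age in UBR4 mKO muscles and the interaction limma called 0 of the 21, against 0.630%, 6.29% and 4.70% of all genes. An unadjusted p under 0.05 was found for 1, 4 and 8 of them, against 10.1%, 19.7% and 31.0% of all genes. When scaled to the median gene 0, 1 and 0 were called, against 97, 1197 and 208 of 10598 genes.

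Of the 7 heat shock genes, which respond to many of the stimuli that induce immediate early genes, 4 were higher in UBR4 mKO muscles at 6 months, against 44.9% of all genes called, and 4 were higher with age in WT muscles, against 25.1%. When scaled to the median gene, 2 were called at 6 months, Hsp90aa1 and Hspb1, and 1 with age in WT, Hsph1, against 1786 and 1035 of 10598 genes. Hspb1, a small heat shock protein abundant in muscle, was at 212 against 120.1 TPM at 6 months (limma adjusted p = 0.000219), and Hsp90aa1, an inducible chaperone, at 25.8 against 14.8 TPM (limma adjusted p = 7.40e-05). For genotype at 24 months and for age in UBR4 mKO muscles limma called 0 of the 7, against 0.630% and 6.29% of all genes. At an unadjusted p under 0.05 there were 0 and 1, against 10.1% and 19.7%. When scaled to the median gene 0 were called, against 97 and 1197 of 10598 genes. The interaction called 3 of the 7 (Hsph1, Hsp90aa1 and Hspb1), against 4.70% of all genes, all with a lower log2 fold change with age in UBR4 mKO than in WT muscles. When scaled to the median gene 0 of these were called, against 208 of 10598 genes.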

How the data were processed

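Tibialis anterior muscles of 16 mice, 4 per group by the sample labels, were profiled by RNA-seq. The authors trimmed and filtered the paired-end reads, aligned them to GRCm38 (mm10) with CLC Genomics Workbench and deposited TPM values per gene. The annotation release, the use of strand and the handling of multi-mapping reads are not given in the sources used here, and labels and methods name different library kits. Each sample sums to 1000000 TPM, so depth per sample is unknown and no counting interval was computed. The labels call the samples biological replicates. The study's methods name fewer replicates per group for the expression test than the 4 in the table, which ones is not given in the sources used here, and all 4 were used.

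Genes with a mean of at least 1 TPM were fitted as log2(TPM + 0.1) with limma 3.58.1 in R 4.3.3 over the 4 groups, with a variance trend and Benjamini-Hochberg adjustment over all 10628 genes (threshold 0.05). A fold change on this scale understates that of low genes. Spread was tested with limma on absolute deviations from group means. Exact permutation tests (70 assignments) and within-group permutations were run in Python 3.11.15. For the median-gene scale, TPM were divided by median-of-ratios factors. On simulated data for UBR4 mKO against WT at 24 months, 200 of 10628 genes were changed by 1.5 (log2). The level test recovered 96%, with 2.54% false calls, and the spread test recovered 45.5% of 4-fold changes in SD.

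The genes named are the 10 immediate early genes, all of them whatever their values, up to 8 genes most alike, and called genes of the other lists. The members and lists were chosen with earlier results of these data known. Transcripts were compared with minimap2 2.31-r1302, and no near-identical copy was found. Alternatives were other pseudocounts, filters, scalings, variance settings, groups, tests and leaving out each muscle.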

Additional observations from a re-analysis of the deposited data

Results flagged for a closer look

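Atf3 in replicate 2 of the 24-month-old WT muscles, at 39.7 TPM against 8.10 to 10.9 TPM in the other 3 muscles of the group, lay farther from its nearest neighbour than Dixon's 95% critical value for 4 samples allows. It was the 1 value flagged among 40 combinations of gene and group, and chance flags about 1 in 20. The same muscle was above its group mean for 9 of the 10 genes, by 0.40 on average on the log2 scale. Without it, the log2 fold change of Atf3 with age in WT was 0.73 (limma adjusted p = 0.118).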

How the results depend on the processing

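TPM keeps no depth, and 4 muscles per group limit every test here. For UBR4 mKO against WT at 6 months, 0 members were called and 2 (Atf3, Junb) when only the groups compared were fitted. With age in WT the 2 calls became 1 with no filter, without the variance trend, with robust variance and with array weights, 0 with median-of-ratios scaling, with rescaling without mitochondrial genes and with the Dunn test (which called 0 of all genes), and 5 with only the groups compared, and leaving out 1 muscle gave 0 to 3. Leaving out 1 muscle gave 0 to 1 for UBR4 mKO against WT at 24 months, for age in UBR4 mKO and for the interaction, and array weights called 1 (Jun) for age in UBR4 mKO. Atf3 was called with age in WT in 12 of 28 alternatives and Junb in 21 of 28, with adjusted p up to 0.208 and 0.120. No value that had been called changed sign.

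For spread, UBR4 mKO against WT at 6 months gave 1 with no filter and 2 without the variance trend, against 0. At 24 months the 4 calls became 0 with deviations from the group median and with only the groups compared, and leaving out 1 muscle gave 1 to 6. For age in UBR4 mKO the 1 call became 0 with the group median and with only the groups compared, 3 with either pseudocount, either rescaling and no variance trend, 6 with no filter and 2 with robust variance, and leaving out 1 muscle gave 0 to 4. Over all genes, the group median left 0 calls (822 genes at an unadjusted p under 0.05 at 24 months). Of all 45 pairs 24 were correlated, and 13 to 27 when 1 muscle was left out, with the lowest count without replicate 4 of the 6-month-old WT group, and 4 without the 24-month-old UBR4 mKO group.

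Over 24 pairs of same-numbered samples the correlation of deviations, taken over all tested genes, ran from -0.35 to 0.18, and 4 were above 0.1. This check says little about the members alone. Their mean deviation in replicate 2 was above 0 in every group (0.39, 0.10, 0.40 and 0.72). In replicate 3 it ran from -0.67 to 0.01, and in replicates 1 and 4 it lay on both sides of 0. Whether same-numbered muscles were handled together was not tested. With the replicate number as a block, Atf3 was called in the interaction, 1 member in place of 0, and the other counts of members stayed at 0, 0, 2 and 0. Over all genes the block called 38 in place of 67 at 24 months and 284 in place of 500 in the interaction.

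Other counts over all genes that moved by more than 1.5 times were, for levels at 6 months, 1786 (median-of-ratios), 1764 (without mitochondrial genes), 2485 (Dunn) and 2895 (mean TPM of at least 5), against 4767. At 24 months they were 43 (no filter), 33 (no trend), 254 (array weights), 0 (Dunn, 427 at an unadjusted p under 0.05) and 8 (only the groups compared), against 67. With age in WT they were 1035, 1125 and 0 (Dunn, 2840 unadjusted) and 6531 (array weights), against 2669, and with age in UBR4 mKO 1197, 1105, 0 (Dunn, 1132 unadjusted), 401 (mean TPM of at least 5), 1743 (array weights) and 439 (only the groups compared), against 669. In the interaction, median-of-ratios scaling called 208, 107 higher and 101 lower, against 13 and 487 of 500, rescaling without mitochondrial genes 231, no filter 299 and array weights 2861. The spread calls at 24 months, 674, became 293 with a mean TPM of at least 5, 1464 and 2050 under the rescalings, 2128 with no filter, 22 without the trend and 1 with only the groups compared. For age in UBR4 mKO the 294 spread calls became 112 (mean TPM of at least 5), 1444 and 1718 (rescalings), 2074 (no filter), 9 (no trend), 188 (robust variance) and 1 (only the groups compared). The 2 and 10 spread calls at 6 months and with age in WT became 1380 and 1246 with no filter and lay between 0 and 12 under the other alternatives that kept all muscles. For levels, leaving out 1 muscle gave 2749 (6-month-old WT replicate 4) to 6247 at 6 months, 8 (24-month-old WT replicate 3) to 69 at 24 months, 978 and 4975 with age in WT (6-month-old WT replicates 4 and 2), 371 (6-month-old UBR4 mKO replicate 3) to 777 with age in UBR4 mKO, and 185 and 2492 in the interaction (24-month-old WT replicate 1 and 6-month-old WT replicate 2). Of the 16 muscles, 1, 8, 6, 3 and 11 moved these counts by over 1.5 times. For spread it gave 0 to 151 and 30 to 2204 between genotypes at 6 and 24 months, and 2 to 219 and 21 to 2064 with age in WT and UBR4 mKO. The cause of these differences was not tested.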
